A study of Homo sapiens with 21 samples.

Results

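The ATP-binding cassette (ABC) family was examined in coumarin-treated cells. Coumarin is a plant benzopyrone, and the labels name the cells as HepG2, an established human hepatoma line. The family was taken as every protein-coding gene of the count table whose symbol is ABC, a letter from A to G and a number. This gave 45 genes of 58735 in the table, of which 19951 code for protein. The 7 groups received coumarin at 0 (control), 0.001, 0.01, 0.1, 1, 10 or 100 µM for 24 h in medium without serum, and all came from the 1 labelled line. Each group had 3 libraries that the labels call biological replicates, 21 in all.

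ABC proteins bind and hydrolyse ATP in paired cytosolic domains, and most use that energy to move a substrate through a membrane. Liver cells use members of the family to export bile salts, phospholipids, sterols and conjugated drugs, and other members serve mitochondria, peroxisomes and lysosomes. Subfamilies E and F have the ATP-binding domains but no membrane part, and they act in ribosome recycling and translation.

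Gene counts totalled 26984563 to 43375429 per library, and the 45 genes held 0.149% to 0.159% of them. Control replicates 2 and 3 stood apart in scaling, with TMM factors of 1.04 and 1.043 against 0.9999 in control replicate 1 and 0.972 to 1.018 in the treated libraries. The numbers of ABC genes called at each dose, and the changes of some single genes, are therefore also given against control replicate 1 alone. The tallies of partner lists are not. The labelled cell type was not borne out by hepatocyte markers. All 18 listed hepatocyte markers stayed under 1 CPM (counts scaled to library size) on average, 6 of them at 0 in every library (ALB, APOC3, TTR, FGB, RBP4 and FOXA2). Summed, they reached 0 to 0.209 CPM at 100 µM and 0.0334 to 0.164 CPM in control. Of 7 markers of other epithelia, keratins KRT7 and KRT17 averaged 751 and 143 CPM and the other 5, EPCAM and CDH1 among them, stayed under 1 CPM. Of 7 mesenchymal markers PDGFRA was at 0 and COL1A2 near 0, the collagen COL3A1 averaged 1210 CPM, and together they made 1420 to 1460 CPM at 100 µM and 1620 to 1710 CPM in control. The part of that difference in the results below was not tested. In bulk RNA, fewer cells of a type and less RNA per cell cannot be told apart.

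The cells expressed a broad but uneven set of ABC genes. By the deposited FPKM, a level per gene length, 8 genes averaged at least 10 FPKM, 15 lay between 1 and 10, and 22 lay below 1. The 3 most abundant genes made up 40% of the summed FPKM of the family and the 10 most abundant 77.1%. The family's sum was 214.4 to 231.8 FPKM per library, and the median coefficient of variation within a group was 3.93%. ABCF1, which acts in translation initiation, led at 49.1 ± 2.36 FPKM (SD over 21 libraries). ABCA3, which loads phospholipid into lamellar bodies in lung, had 20.5 ± 1.41 FPKM. ABCC2, the canalicular exporter of conjugates into bile, had 19.8 ± 0.876 FPKM, and the ranges of ABCA3 (18.1 to 22.7) and ABCC2 (18.5 to 21.3) overlapped. ABCE1, which splits ribosomes after termination, had 18.2 ± 1.30 FPKM, and ABCC1, an exporter of glutathione conjugates, had 15.2 ± 1.20. ABCF3 followed at 11.3 FPKM.

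**Figure D1:**
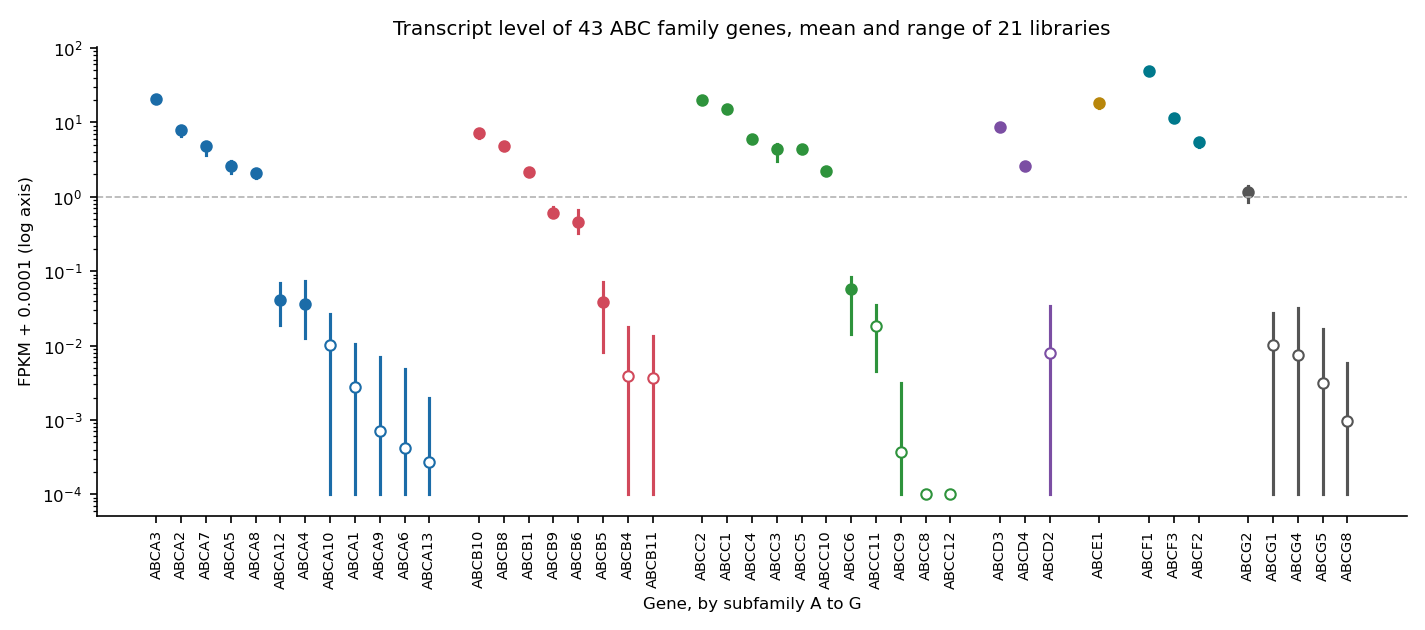
Deposited FPKM of 43 ABC genes by subfamily, on a log axis after adding 0.0001, with points for the mean of 21 libraries and bars for the lowest and highest library. Filled points are the 27 genes that held enough counts to be tested, open points the 16 that did not, and the dashed line marks 1 FPKM. Of the drawn genes 21 lie above the line, ABCB9 and ABCB6 lie under it at 0.597 and 0.458 FPKM, and the other 20 lie well below those.

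By subfamily, F held the largest summed level at a mean of 65.9 FPKM from 3 genes, followed by C at 52.0 FPKM from 11 genes and A at 37.9 FPKM from 12. Subfamily B had 26.7 FPKM, D 21.7, E, a single gene, 18.2, and G only 1.19. The level of G came almost wholly from ABCG2, an exporter of drugs and urate.

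Expression differed between roles. Of the 7 genes listed under sterol and phospholipid export, ABCA7 alone was expressed, at 4.77 FPKM. ABCA3 and ABCA8, which were expressed, are listed with the other lipid carriers of subfamily A. ABCA1 and ABCG1, which load cholesterol onto HDL, had at most 4 and 5 counts in any library. ABCG5 and ABCG8, the sterol transporter of the canaliculus, had at most 2 counts each. ABCB4, which puts phosphatidylcholine into bile, had at most 4 counts, and ABCG4 at most 6. ABCB11, the bile salt export pump, had 0 to 3 counts. In contrast, all 4 mitochondrial genes were measurable, with 3 above 1 FPKM, and so were 3 of the 4 peroxisomal and lysosomal ABCD genes, the exception being ABCD2 with at most 6 counts. The sulfonylurea receptor genes ABCC8 and ABCC9, regulators of potassium channels, had 0 counts and at most 1 count. In all, 16 genes had at most 8 counts in any library and were not tested, and ABCC8 and ABCC12 had 0 counts throughout. By counting error alone, a gene listed at 0 could still have had 3 counts, which is 0.111 CPM in the smallest library.

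Neighbouring genes differed widely in level. On chromosome 17 (GRCh38) the cluster ABCA8, ABCA9, ABCA6, ABCA10 and ABCA5 lies on the minus strand between 68867292 and 69327244. Its outer genes ABCA8 and ABCA5 had 2.10 and 2.58 FPKM, and ABCA9, ABCA6 and ABCA10 had at most 2, 2 and 7 counts per library. On chromosome 7 ABCB1, which encodes the drug exporter P-glycoprotein, had 2.18 FPKM, beside ABCB4 near 0. ABCA5 and ABCA10 share 536 bases on the same strand, so the few ABCA10 counts cannot be told apart from ABCA5 reads there.

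Whether ABC transcripts respond to the highest dose was read from 100 µM against control. Of the 29 tested genes, 11 changed (37.9%), 4 higher and 7 lower, against 27.3% of all 16699 genes tested (edgeR quasi-likelihood F test with an adjusted p under 0.05 by Benjamini-Hochberg). The share over all genes was 14.4% higher and 12.9% lower. With no filter the split was 6 higher and 6 lower of 43 genes tested, beside 11.9% of all genes. In a fit of the 2 groups alone it was 7 higher and 7 lower of 29, beside 29.2%. The median log2 change of the 29 genes was 0.02, and that of all genes tested was -0.01. ABCC3 had the largest change among genes above 1 FPKM, at 1.62-fold lower, followed by ABCA5 at 1.34-fold lower. The 7 that fell were ABCC3, ABCA5, ABCA7, ABCA8, ABCA2, ABCG2 and ABCB5, and the 4 that rose were ABCA3, ABCF3, ABCC10 and ABCE1. In subfamily A, 4 of 7 tested genes fell and 1 rose. Without 100 µM replicate 3 the count was 7 (ABCA2, ABCA3, ABCA5, ABCA7, ABCA8, ABCC3 and ABCF3), beside 21.6% of all genes. The same 7 genes passed at an adjusted p under 0.01, beside 17.8% of all genes. Against control replicate 1 alone 6 genes changed, beside 13.5% of all genes, with ABCA3 and ABCC5 higher and ABCA5, ABCA7, ABCB5 and ABCC3 lower.

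**Figure D2:**
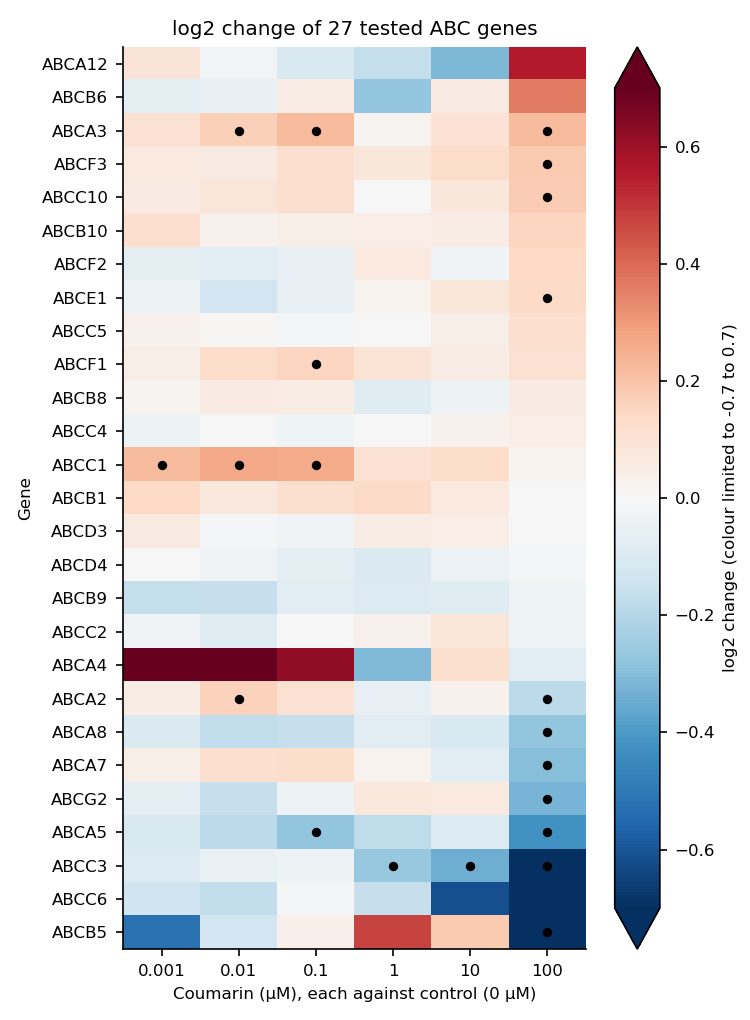
Log2 change of 27 tested ABC genes (rows, ordered by their change at 100 µM) at each coumarin dose in µM (columns) against control, from the edgeR fit. Red is higher and blue lower than control, colours stop at 0.7 either way, and dots mark an adjusted p under 0.05. Dots gather in the last column, 11 of them, and ABCC3 alone carries dots at 1, 10 and 100 µM.

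Among the multidrug resistance proteins of subfamily C, ABCC3 was lower at 1, 10 and 100 µM and was not called at the 3 lower doses. ABCC3 (ENSG00000108846, chromosome 17, 50634777 to 50692252, plus strand) encodes the basolateral exporter that passes glucuronides and bile salts back to blood. It had 49.4, 51.1 and 51.3 CPM in control. At 0.001 µM it had 46.3, 45.7 and 50.3 CPM, at 0.01 µM 49.5, 49.3 and 48.2, and at 0.1 µM 49.5, 48.6 and 49.7. At 1 µM it had 41.4, 43.5 and 41.3 CPM, at 10 µM 41.0, 39.9 and 38.9, and at 100 µM 32.1, 31.5 and 30.2. The libraries at 1 µM and above all lay below those at lower doses, and those at 100 µM lay below all others. ABCC3 fell by 0.27 on the log2 scale at 1 µM (SE 0.0468; edgeR adjusted p = 0.0014) and by 0.34 at 10 µM (SE 0.047; edgeR adjusted p = 2.85e-05). It was the only ABC gene called at those doses, where 2.01% of all genes changed at 1 µM (1.57% higher, 0.431% lower) and 2.62% at 10 µM (1.74% higher, 0.874% lower). At 100 µM it was 1.62-fold lower (log2 change -0.69, SE 0.048; edgeR adjusted p = 1.03e-14). That call held in the 12 other settings and without any 1 of the 6 libraries compared (log2 change of -0.73 to -0.55 over all of them). Against control replicate 1 alone the log2 change was -0.23 at 1 µM (edgeR adjusted p = 0.172), -0.31 at 10 µM (0.0174) and -0.66 at 100 µM (2.14e-09). In that comparison 0 ABC genes passed at 1 µM, beside 0.204% of all genes, and ABCC3 alone at 10 µM, beside 0.575%.

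Of the other tested exporters of conjugates and drugs, ABCG2 and ABCB5 fell and ABCC10 rose at 100 µM, each on a call that leaving out a library could end. ABCC2 had 158.6, 161 and 154 CPM at 100 µM, against 151.5, 165.5 and 167 CPM in control, overlapping groups with a log2 change of -0.03 (SE 0.0414; edgeR adjusted p = 0.632). Its other groups ranged from 150.4 to 173 CPM, with the highest library at 10 µM. ABCG2 had 5.44, 5.50 and 4.41 CPM at 100 µM, against 6.28, 6.31 and 6.48 CPM in control. ABCG2 fell by 0.32 (SE 0.113; edgeR adjusted p = 0.0293) with no overlap, and the call ended without control replicate 2, control replicate 3 or 100 µM replicate 3 (adjusted p of 0.0554, 0.0796 and 0.223). ABCB1 had a log2 change of 0.00 (SE 0.0733; edgeR adjusted p = 0.977). ABCB5, a drug exporter gene of melanocytes, had 6, 3 and 3 counts at 100 µM, against 16, 7 and 14 counts in control. ABCB5 was 3.17-fold lower on those counts (log2 change -1.66, SE 0.536; edgeR adjusted p = 0.0175). The call ended without control replicate 1 or 3 or without 100 µM replicate 2 or 3 (adjusted p of 0.0572 to 0.104), so it rests on few counts. ABCC4, which exports cyclic nucleotides, had 55.6 ± 1.23 CPM at 100 µM and 53.8 ± 1.01 in control (SD, n = 3 each; log2 change 0.05, edgeR adjusted p = 0.503). ABCC5, a related exporter, had 54.7 ± 1.23 CPM at 100 µM and 50.3 ± 4.26 in control (SD, n = 3 each; log2 change 0.12, edgeR adjusted p = 0.077). Against control replicate 1 alone, the lowest of the controls, ABCC5 rose by 0.27 (edgeR adjusted p = 0.0055). ABCC10, which exports lipophilic drugs, had 19.7, 19.7 and 21.1 CPM at 100 µM, against 18.3, 16.4 and 18.9 CPM in control. ABCC10 rose by 0.18 (SE 0.0681; edgeR adjusted p = 0.0496), a call that was kept only without control replicate 3 among the 6 libraries (adjusted p of 0.0383 to 0.304).

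Lipid carriers of subfamily A moved in both directions. ABCA5, a lysosomal lipid carrier (ENSG00000154265, chromosome 17, 69244311 to 69327244, minus strand), had 28.9, 30.7 and 29.3 CPM at 100 µM, against 37.0, 40.5 and 41.7 CPM in control. ABCA5 was 1.34-fold lower (log2 change -0.42, SE 0.0687; edgeR adjusted p = 1.05e-05). All 3 libraries at 100 µM lay below the other 18. The lower doses had 32.2 to 40.9 CPM, and of these groups 0.1 µM lay wholly below control and the others overlapped it. ABCA7, a phospholipid exporter that also acts in phagocytosis (ENSG00000064687, chromosome 19, 1040101 to 1065572, plus strand), had 34.9, 34.5 and 32.0 CPM at 100 µM, against 40.7, 43.04 and 40.9 CPM in control. ABCA7 was 1.23-fold lower (log2 change -0.30, SE 0.0539; edgeR adjusted p = 3.93e-05), and all 3 libraries at 100 µM lay below all 18 others. ABCA8, a sterol and drug carrier, also lay wholly below control at 0.01 and 0.1 µM, with 23.36 to 24.45 CPM. It was called at those 2 doses with upper-quartile scaling and without control replicate 1, but not in the main fit. At 100 µM it had 23.2, 20.6 and 22.5 CPM, against 25.0, 27.7 and 27.6 CPM in control. ABCA8 fell by 0.28 (SE 0.0585; edgeR adjusted p = 0.000377), and against control replicate 1 alone by 0.17 (edgeR adjusted p = 0.17).

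ABCA2, an endolysosomal carrier linked to sphingolipid and sterol traffic, had 81.7, 82.5 and 79.5 CPM at 100 µM, against 89.0, 94.7 and 92.9 CPM in control. ABCA2 fell by 0.18 (SE 0.0481; edgeR adjusted p = 0.00346), and by 0.13 against control replicate 1 alone (edgeR adjusted p = 0.218). ABCA3 (ENSG00000167972, chromosome 16, 2275881 to 2340746, minus strand) went the other way, with 181.9, 179 and 174.8 CPM at 100 µM, against 153.7, 157.7 and 147 CPM in control. ABCA3 rose by 0.22 (SE 0.0445; edgeR adjusted p = 0.00016) and by the same 0.22 against control replicate 1 alone (edgeR adjusted p = 0.015). It was also higher at 0.01 µM (log2 change 0.17) and 0.1 µM (0.22). ABCA12, the skin lipid carrier, and ABCA4, the retinal carrier, had 5 to 22 and 3 to 21 counts per library and were not called at 100 µM (edgeR adjusted p = 0.248 and 0.937).

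**Figure D3:**
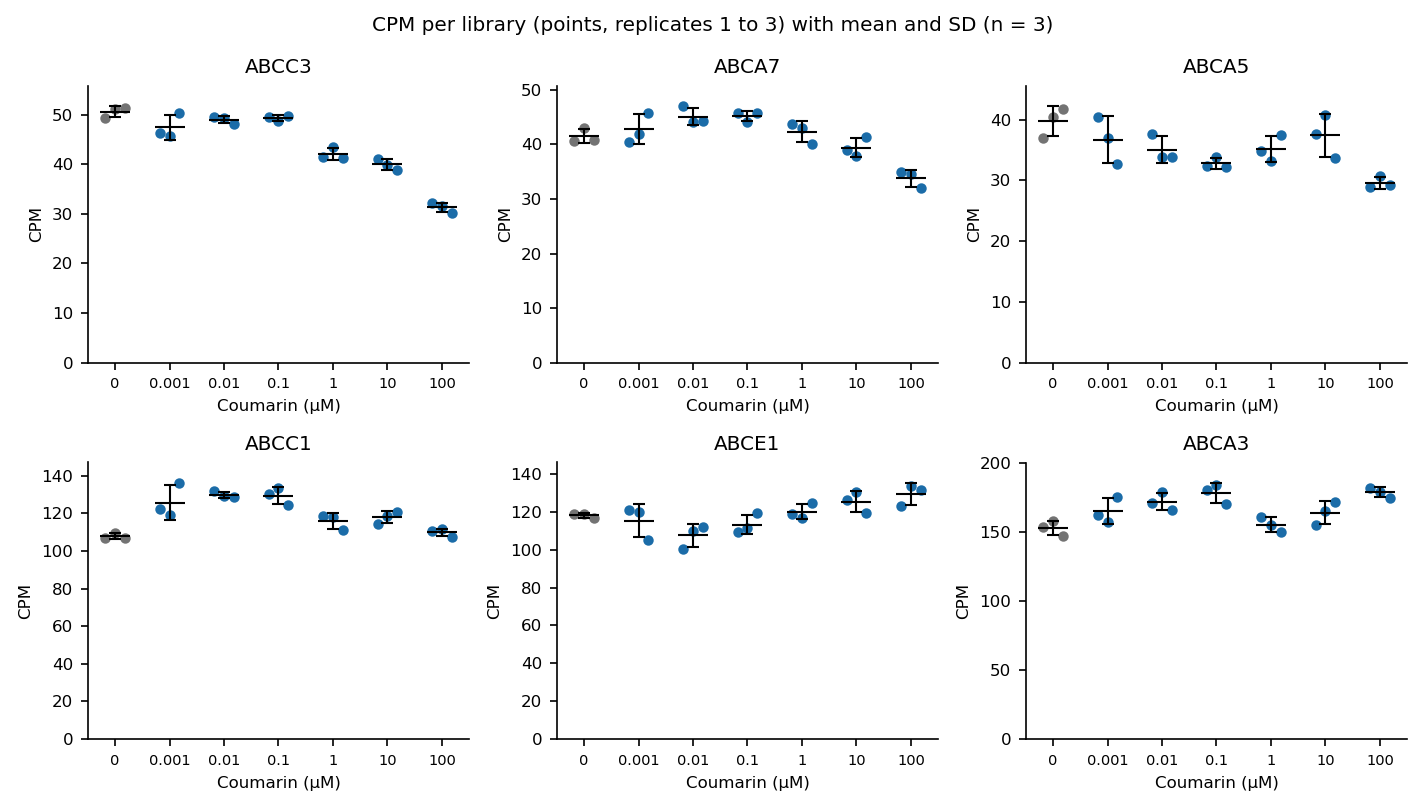
CPM of 6 ABC genes in each library (points, grey for control and blue for treated) by coumarin dose in µM, with the group mean and SD (n = 3) as lines. ABCC3 steps down at 1, 10 and 100 µM, ABCA7 and ABCA5 are lowest at 100 µM, ABCC1 is highest at 0.001 to 0.1 µM, ABCE1 has its highest mean at 100 µM and ABCA3 is high at 0.01, 0.1 and 100 µM.

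Of the 4 genes without a membrane domain, ABCF3 and ABCE1 rose at 100 µM and none fell, beside 14.4% higher and 12.9% lower over all genes. ABCF3, a translation-linked ATPase, had 65.9, 64.2 and 65.1 CPM at 100 µM, against 58.0, 56.6 and 57.4 CPM in control. ABCF3 rose by 0.18 (SE 0.0492; edgeR adjusted p = 0.0045), and against control replicate 1 alone by 0.17 (edgeR adjusted p = 0.119). The ABCF3 libraries at 0.01, 0.1, 1 and 10 µM also all lay above control, without a call, and the highest (66.63 CPM) was at 10 µM. ABCF3 was called at 100 µM against the 12 libraries at 0.001 to 1 µM, but not against 10 µM or for the slope. ABCE1 (ENSG00000164163, chromosome 4, 145097932 to 145129179, plus strand) had 123, 133.8 and 131.7 CPM at 100 µM, against 118.9, 118.8 and 116.5 CPM in control. ABCE1 rose by 0.13 (SE 0.0491; edgeR adjusted p = 0.0385), a call kept only without 100 µM replicate 1 among the 6 libraries (adjusted p of 0.0264 to 0.192). ABCE1 overlaps OTUD4 on the opposite strand over 18342 bases, and OTUD4 had a mean of 2294.5 counts against 3643.7 for ABCE1. The strand setting of the counting is not given in the sources used here, so reads of the 2 genes cannot be told apart in the overlap. ABCF1 had 242, 226 and 236 CPM at 100 µM, against 231.5, 209.7 and 212.8 CPM in control, overlapping groups (log2 change 0.11, SE 0.0427; edgeR adjusted p = 0.0572). Its call passed without control replicate 1 (adjusted p = 0.00875) or without 100 µM replicate 2 (0.0492). ABCF2 had 24.7, 26.5 and 26.9 CPM at 100 µM, against 22.8, 23.7 and 24.5 CPM in control (log2 change 0.14, SE 0.0667; edgeR adjusted p = 0.126).

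Of the 8 tested genes listed as mitochondrial, as subfamily D or as the lysosomal peptide carrier, 0 passed at 100 µM, beside 27.3% of all genes. That count depended on the setting. ABCB10 and another of the 8 passed with no filter (11.9% of all genes) and in the fit of the 2 groups alone (29.2%). ABCB10 also passed without control replicate 2 (22.2%), and ABCB6 against the 12 libraries at 0.001 to 1 µM (33.1%). The lysosomal lipid carriers ABCA2 and ABCA5, listed with subfamily A, are not among these 8. ABCB10, needed for haem synthesis, had 34.0 ± 0.982 CPM at 100 µM and 30.7 ± 2.05 in control (SD, n = 3 each; log2 change 0.15, edgeR adjusted p = 0.0706). ABCB8, another mitochondrial carrier, and ABCD3, a peroxisomal carrier of branched-chain fatty acids, had log2 changes of 0.06 (SE 0.0514) and 0.00 (SE 0.0501). ABCD4, the lysosomal cobalamin carrier, was at -0.01 (SE 0.0624), and ABCB9, the lysosomal peptide carrier, at -0.03 (SE 0.094). ABCB6, a porphyrin carrier, was at 0.36 (SE 0.183; edgeR adjusted p = 0.145) on 50 to 137 counts per library.

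From 0.001 to 0.1 µM, 1, 4 and 5 of the 29 tested genes were called (3.45%, 13.8% and 17.2%). Their split into higher and lower was the same with RLE scaling but not with upper-quartile scaling. With upper-quartile scaling 3 were higher and 2 lower at 0.01 µM, beside 5.01% of all genes. At 0.1 µM 2 were higher and 2 lower, beside 5.29%. A fit of the 2 groups alone gave 4 higher and 2 lower at 0.01 µM, beside 7.87%. At 0.001 µM only ABCC1 changed, beside 1.53% of all genes tested (1.34% higher, 0.192% lower). At 0.01 µM 4 ABC genes rose, ABCA2, ABCA3 and ABCC1 among them, beside 5.86% of all genes (4.77% higher, 1.09% lower). At 0.1 µM 4 rose, ABCA3, ABCC1 and ABCF1 among them, and ABCA5 fell, beside 6.45% of all genes (5.02% higher, 1.43% lower). ABCC1 (ENSG00000103222, chromosome 16, 15949577 to 16143074, plus strand) had 107, 109.7 and 107 CPM in control. It had 122, 119 and 136 CPM at 0.001 µM, 131.8, 129 and 128.5 at 0.01 µM, and 130.4, 133.5 and 124.7 at 0.1 µM. It had 118.8, 118 and 111 CPM at 1 µM, 114.6, 118.6 and 120.9 at 10 µM, and 110.6, 111.5 and 107.6 at 100 µM. All 9 libraries at the 3 lowest doses lay above the controls, as did those at 1 and 10 µM, where ABCC1 was not called. The libraries at 100 µM overlapped the controls. ABCC1 rose by 0.22 at 0.001 µM (SE 0.0437; edgeR adjusted p = 0.00432), 0.26 at 0.01 µM (SE 0.0436; edgeR adjusted p = 0.000141) and 0.26 at 0.1 µM (SE 0.0437; edgeR adjusted p = 0.000176). At 0.001 µM no ABC gene was called without 0.001 µM replicate 3 or against control replicate 1 alone (ABCC1 adjusted p = 0.0755), where 0.725% of all genes passed. Against control replicate 1 alone, ABCC1 was the 1 ABC gene called at 0.01 and 0.1 µM (edgeR adjusted p = 0.0144 and 0.0188), beside 1.72% and 1.34% of all genes. The count at 0.01 µM was 2 without control replicate 2 or 0.01 µM replicate 3, beside 3.83% and 3.2% of all genes. It was 1 without control replicate 3 or 0.01 µM replicate 2, beside 2.57% and 3.22%. At 0.1 µM it was 2 without control replicate 2, control replicate 3 or 0.1 µM replicate 1 (3.6%, 2.54% and 2.8%). Without 0.1 µM replicate 2 the count was 3 (2.75%). ABCC1 was among the genes called each time.

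Comparisons that use no control library were made at the top of the dose range. Between 100 and 10 µM 9 ABC genes changed, beside 18.3% of all genes (8.22% higher, 10% lower), with ABCA3 higher and ABCA2, ABCA5, ABCA7, ABCA8, ABCB5, ABCC2, ABCC3 and ABCG2 lower. ABCC3 fell by 0.35 (SE 0.0487; edgeR adjusted p = 6.08e-07), ABCA5 by 0.33 (edgeR adjusted p = 0.000546), ABCA7 by 0.23 (0.00196) and ABCA2 by 0.21 (0.00123). The count was 4 without 100 µM replicate 3 (ABCA2, ABCA5, ABCA7 and ABCC3), beside 13.1% of all genes. It was 5 without 10 µM replicate 2, beside 16%. Between 100 µM and the 12 libraries at 0.001 to 1 µM 14 ABC genes changed, beside 33.1% of all genes (16.6% higher, 16.5% lower), 6 higher and 8 lower. ABCE1 rose by 0.18 in that comparison (edgeR adjusted p = 0.000192), ABCF2 by 0.17 (0.0106) and ABCB6 by 0.45 (0.0131), and ABCC1 fell by 0.19 (3.96e-05). Between 10 µM and the same 12 libraries ABCE1 rose by 0.14 and ABCA7 and ABCC3 fell by 0.15 and 0.23, beside 2.62% of all genes. ABCC1 was lower at 100 µM than at lower doses but near control, at a log2 change of 0.02 (SE 0.0438; edgeR adjusted p = 0.733).

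**Figure D4:**
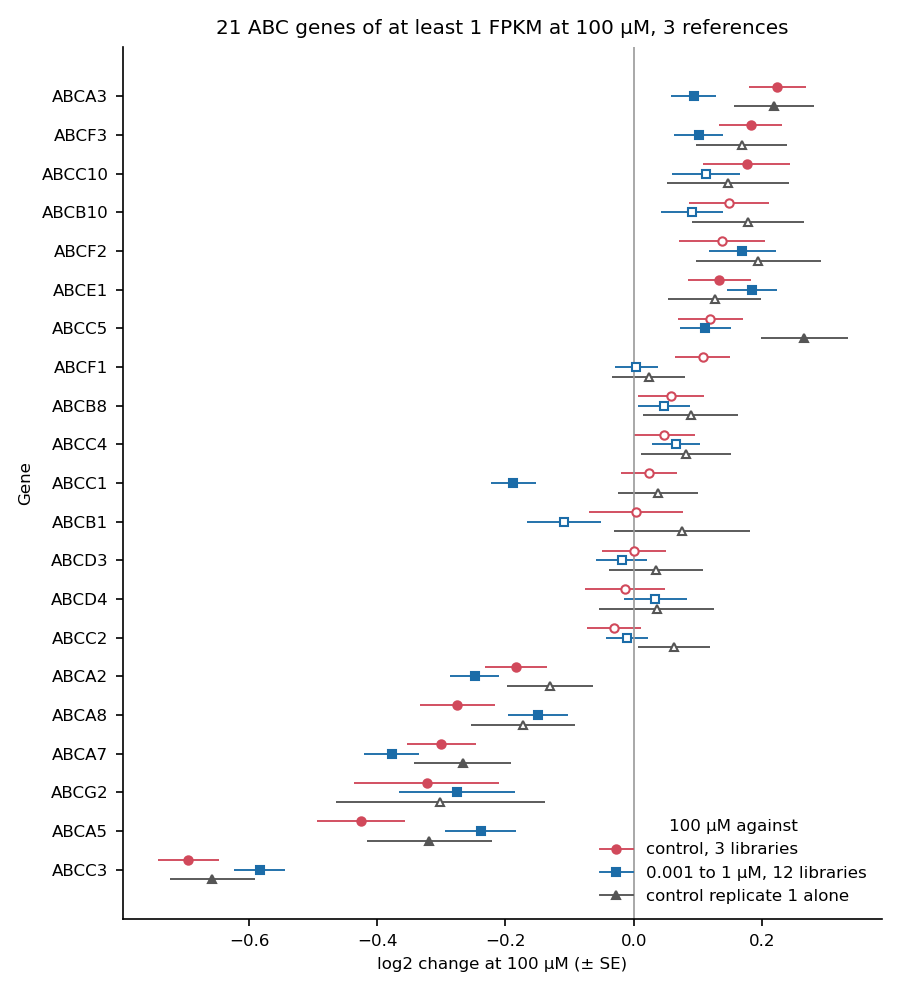
Log2 change at 100 µM (horizontal axis, with SE from the edgeR fit as bars) of 21 ABC genes of at least 1 FPKM, against control (red circles, 3 libraries), the 12 libraries at 0.001 to 1 µM (blue squares) and control replicate 1 alone (grey triangles), with filled symbols for an adjusted p under 0.05. ABCC3, ABCA5 and ABCA7 lie to the left and ABCA3 to the right with filled symbols against all 3 references, and ABCC1 lies near 0 against control and at -0.19 against the 12 libraries.

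A slope on log10 dose over the 18 treated libraries passed for 7 of the 29 genes, 2 upward and 5 downward, beside 21.5% of 16522 genes tested (10% upward, 11.5% downward). ABCC3 had the steepest slope of the genes above 1 FPKM, at -0.12 log2 units per 10-fold dose (SE 0.0153; edgeR adjusted p = 2.61e-05). ABCA7 had -0.07 (SE 0.0132; edgeR adjusted p = 0.000511), ABCA2 -0.05 (SE 0.0117; 0.00251) and ABCC1 -0.05 (SE 0.00921; 0.000721). ABCE1 had a slope of 0.04 (SE 0.0101; edgeR adjusted p = 0.0024) and ABCF2 0.04 (SE 0.0126; 0.0429). ABCA4 had -0.21 (SE 0.0755; edgeR adjusted p = 0.0397), on 3 to 21 counts per library. Without the 3 libraries at 100 µM only the slope of ABCC3 still passed, at -0.07 (edgeR adjusted p = 0.00511). The other slopes then were -0.03 for ABCA7 (edgeR adjusted p = 0.212), -0.03 for ABCC1 (0.0985), -0.03 for ABCA2 (0.332), 0.04 for ABCE1 (0.102), 0.02 for ABCF2 (0.541) and -0.24 for ABCA4 (0.205). The slope of ABCF2 was lost without any 1 of 5 libraries (0.001 µM replicate 3, 0.01 µM replicate 3 and each library at 100 µM; adjusted p of 0.0637 to 0.151). That of ABCA4 was lost without any 1 of 8 libraries (adjusted p of 0.0514 to 0.141), namely 0.001 µM replicates 1 and 2, 0.01 µM replicates 2 and 3, 10 µM replicate 2 and each at 100 µM. A test of any difference among the 7 groups passed for 12 of the 29 genes, beside 30% of all genes.

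Promoter windows from RefSeq (build GRCh38.p14, 250 bases before to 50 after the start) were matched by symbol to 35 of the 45 genes, in 53 windows. The letters GCGTG, the core of the xenobiotic response element bound by the aryl hydrocarbon receptor, occurred on either strand in 36.5% of 35116 windows. They stood in 23 of the 53 ABC windows, from 18 genes. The windows of ABCA7 and ABCA5, lower at 100 µM, and of ABCA3 and ABCE1, higher, are shown 5′ to 3′ along the gene. GCGTG or its reverse complement CACGC is in capitals. The windows lie at chr19:1039857-1040156 on the plus strand, chr17:69327084-69327383 on the minus strand, chr16:2340679-2340978 on the minus strand and chr4:145098061-145098360 on the plus strand.
ABCA7: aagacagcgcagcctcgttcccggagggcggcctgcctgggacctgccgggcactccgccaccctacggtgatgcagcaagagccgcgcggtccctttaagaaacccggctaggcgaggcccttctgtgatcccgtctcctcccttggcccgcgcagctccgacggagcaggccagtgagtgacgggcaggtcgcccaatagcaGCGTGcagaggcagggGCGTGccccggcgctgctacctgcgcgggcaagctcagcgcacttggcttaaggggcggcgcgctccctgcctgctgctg
ABCA5: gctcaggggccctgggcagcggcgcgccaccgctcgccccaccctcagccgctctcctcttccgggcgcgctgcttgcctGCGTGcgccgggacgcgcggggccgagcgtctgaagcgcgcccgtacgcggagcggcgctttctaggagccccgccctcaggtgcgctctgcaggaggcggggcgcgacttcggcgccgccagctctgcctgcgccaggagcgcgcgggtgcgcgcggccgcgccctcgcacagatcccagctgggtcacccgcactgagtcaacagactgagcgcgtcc
ABCA3: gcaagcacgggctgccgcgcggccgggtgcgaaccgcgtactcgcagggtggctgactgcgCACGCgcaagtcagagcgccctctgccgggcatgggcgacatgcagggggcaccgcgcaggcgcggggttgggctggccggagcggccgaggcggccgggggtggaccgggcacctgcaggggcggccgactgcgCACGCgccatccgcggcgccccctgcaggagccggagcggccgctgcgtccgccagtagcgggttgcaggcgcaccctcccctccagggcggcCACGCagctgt
ABCE1: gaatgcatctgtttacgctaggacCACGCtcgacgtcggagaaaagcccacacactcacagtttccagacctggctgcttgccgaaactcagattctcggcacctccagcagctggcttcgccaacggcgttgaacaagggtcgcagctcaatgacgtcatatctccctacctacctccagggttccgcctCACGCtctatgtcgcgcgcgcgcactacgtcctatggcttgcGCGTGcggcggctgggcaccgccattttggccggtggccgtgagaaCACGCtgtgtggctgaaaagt
These held 2, 1, 3 and 4 cores. The windows shown were picked by hand from genes of either direction, so whether the core goes with the change was not tested. The antioxidant response element core TGACNNNGC, read on both strands, was found in 13.3% of all windows and in 12 of the 53 ABC windows. The C/EBP-ATF element core TGATGNAA was found in 3.62% of all windows and in 3 of the 53 ABC windows (ABCA13, ABCB11 and ABCG2). The DR4 direct repeat of the liver X receptors was found in 0.0199% and in 0 ABC windows. A match is a description of letters and not a binding site.

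Genes that act together with ABC proteins were read from lists at 100 µM. In glutathione metabolism, which feeds conjugate export by subfamily C, 7 of 11 listed genes rose and 2 fell, with a median log2 change of 0.12. The list holds genes of both supply and breakdown, so the tally gives no direction of supply. The tallies of this and the other lists were not repeated against control replicate 1 alone or with 1 library left out. Over all genes tested 14.4% rose and 12.9% fell, a background that holds for each list at this dose. CHAC1, which degrades glutathione, rose 8.02-fold (edgeR adjusted p = 9.32e-22), SLC7A11, the cystine importer, rose by 0.45 (3.1e-07), and the glutathione transferase gene GSTM3 fell by 0.23 (2.58e-05). Among transcription factors that regulate ABC genes, 1 of 15 rose and 2 fell, with a median of -0.02. VDR, the vitamin D receptor, fell by 0.47 (edgeR adjusted p = 5.77e-09) and SREBF2, the sterol-responsive factor, by 0.16 (0.00141). PPARG rose by 0.30 (edgeR adjusted p = 0.0446), a call lost without any 1 library except control replicate 1 (adjusted p of up to 0.167). Of 10 tested LXR target and HDL genes 2 rose and 1 fell (median -0.03), and 7 did not pass. NPC1, a lysosomal cholesterol exporter, rose and SREBF1, a lipogenic factor, fell, and each lost the call in 4 of the 6 fits that left out 1 library (adjusted p of up to 0.192). In ribosome recycling and the GCN2 pathway, to which ABCE1 belongs, 4 of 10 rose and 1 fell, with a median of 0.10. ATF4, the stress transcription factor, rose by 0.56 (edgeR adjusted p = 1.49e-14), EIF2S2, an initiation factor subunit, by 0.58 (2.46e-14), and HBS1L, a ribosome rescue factor, fell by 0.21 (0.000147).

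Partners of the organelle and uptake carriers gave 6 calls in lists of 14, 12 and 6 tested genes, a share below the 27.3% of all genes, and 2 of the calls were uptake carriers. In the mitochondrial iron-sulphur and haem list 1 of 14 rose, ALAS1, the first enzyme of haem synthesis, by 0.26 (edgeR adjusted p = 2.42e-05; 0.0506 against control replicate 1 alone). In the peroxisomal list 2 of 12 rose and 1 fell. CAT, catalase, rose by 0.34 (edgeR adjusted p = 4.85e-08), PEX5, the import receptor, by 0.23 (0.000131), and ACBD5, a lipid-binding membrane protein gene, fell by 0.15 (0.00907; 0.0715 against control replicate 1 alone). Of 12 hepatic uptake carriers only 6 were tested. SLCO1B3, an organic anion importer, fell by 0.67 (edgeR adjusted p = 0.00116; 0.11 against control replicate 1 alone), and SLC22A3, an organic cation carrier, rose by 0.59 (0.00955; 0.27 against control replicate 1 alone). The SLC22A3 call also ended without control replicate 2 or 100 µM replicate 3 (adjusted p = 0.136 and 0.0673).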

How the data were processed

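The authors deposited raw counts per gene and library, and FPKM values that are scaled by gene length and a library total. The submitters' processing notes name HISAT2, DESeq2 and build GRCh38, with no version. Which counter and strand setting were used, and which total stands behind FPKM, is not given in the sources used here. RNA was selected on poly(dT) beads, per the labels' protocols.

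All 21 libraries entered 1 fit of the counts by edgeR 4.0.16 in R 4.3.3 (filterByExpr with a minimum count of 10, TMM factors, robust quasi-likelihood F test, 14 residual degrees of freedom). Two-sided p-values (the test over 7 groups has no side) were adjusted by Benjamini-Hochberg over all genes tested. Only a gene with an adjusted p under 0.05 is said to have risen, fallen or changed. The 18 treated libraries gave the slope on log10 dose. CPM use TMM-scaled library sizes. Standard errors come from the log2 change and its F value. Replicates varied by 4.49% (common biological coefficient of variation). Nothing in the labels says more of the replicates than that they are biological, so p-values measure the spread between these samples. No 2 libraries held identical counts. A fit against control replicate 1 alone has 1 control library, assumed to vary like the treated groups, so a call lost there does not show an absent change.

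The ABC genes, the lists and the motifs were chosen with earlier results of these data known. All ABC genes could be named, with full values for those that passed at 100 µM or for the slope and the 3 of highest FPKM. Genes outside the family come from lists, up to 3 of each with the smallest p at 100 µM. Alternatives were scaling by RLE or upper quartile, leaving out the filter, requiring 1 CPM in 3 libraries, an adjusted p under 0.01, the 2 groups alone, the replicate number as a block, other references, dose rank, limma 3.58.1 on log2 of FPKM plus 1 or 0.1, DESeq2 1.42.0 and leaving out each library. Counts and sums cover the whole family and lists, but a few genes are not reported here by name or in the figures. The scripts were tested on simulated data.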

Additional observations from a re-analysis of the deposited data

How the results depend on the processing

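At 100 µM, 7 ABC genes (ABCA2, ABCA3, ABCA5, ABCA7, ABCA8, ABCC3 and ABCF3) passed whichever 1 of the 6 libraries was left out. ABCA3, ABCA5, ABCA7 and ABCC3 passed in all 12 other settings as well, and ABCA2, ABCA8 and ABCF3 in all but control replicate 1 alone. ABCC10 lost its call in 11 of 12 other settings, ABCE1 in 6, ABCG2 in 5 and ABCB5 in 3 of 10. At an adjusted p under 0.01, 7 ABC genes were called at 100 µM (17.8% of all genes) and 1 at 0.01 µM (2.8%). At 0.1 µM 2 were called (2.62%), and for 100 against 10 µM 5 (10.9%). By limma on FPKM plus 1, 25.4%, 4.79%, 5.47% and 16.1% of all genes were called in the same order. With either pseudocount the number of ABC genes called was 7, 2, 3 and 5. Against control replicate 1 alone it was 0 at 0.001 µM, 1 at 0.01 µM, 1 at 0.1 µM, 0 at 1 µM and 6 at 100 µM. At 0.001 µM it was 2 of 43 tested with no filter (1.12% of all genes) and 2 of 22 by DESeq2 (4.71%). A fit of the 2 groups alone gave 0 of 29 (0.599%). At 10 µM the number was 3 with the 12 lower-dose libraries as reference (2.62%), and without 100 µM 1 slope passed (2.64%). The causes were not tested, though fewer control libraries and a stricter threshold lower a count by construction.

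Leaving out 1 library gave counts of 0 to 1 at 0.001 µM (0.335% to 1.95% of all genes) and 1 to 4 at 0.01 µM (2.57% to 6.44%). They were 2 to 5 at 0.1 µM (2.54% to 7.65%), 1 at 1 µM (0.222% to 3.99%) and 1 at 10 µM (0.539% to 3.84%). Counts were 7 to 10 at 100 µM (21.1% to 25.9%) and 8 to 15 for any group (22.4% to 33.9%). For 100 against 10 µM they were 4 to 7 (13.1% to 17%), and for slopes 5 to 8 (14.2% to 23.2%). Directions turned for 4 genes. ABCC1 at 100 µM had a log2 change of -0.0085 with upper-quartile scaling and -0.188 against the 12 libraries at lower doses. ABCC2 had 0.0631 against control replicate 1 alone. ABCA4 had 0.0348 against control replicate 1 alone, 0.0404 without control replicate 3 and 0.0357 without 100 µM replicate 3, within a range of -0.185 to 0.0404 when 1 library was left out. NPC1, an LXR list gene that had risen, had -0.061 against the 12 libraries.

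Same-numbered treated and control replicates did not deviate together: the correlation of their deviations had a median of -0.00112 over 18 pairs, with 0 over 0.1. Over all 63 same-numbered pairs from different groups the median was -0.00685, with 2 over 0.1 and a highest value of 0.222. Over the 126 pairs of different number it was 0.00264, with 5 over 0.1 and a highest value of 0.141. With the replicate number as a block the counts were 1, 4, 5, 1, 1 and 10 from 0.001 to 100 µM. They were 10 for any group, 6 for 100 against 10 µM and 6 slopes. The shares over all genes were 1.43%, 5.58%, 5.86%, 1.93%, 2.25% and 26.6%, then 28.8%, 17.7% and 19.9%. Genes of at most 26 counts in any library, ABCA4, ABCA12, ABCB5 and ABCC6 among those tested, can show only large changes at this depth.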

Other observations

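Other rows of the family, outside the rule on symbols, were also read. TAP2, which encodes a subunit of the peptide transporter that feeds MHC class I, had 15.4, 14.2 and 14.3 CPM at 100 µM, against 10.6, 10.2 and 10.6 CPM in control. TAP2 rose by 0.48 (SE 0.0804; edgeR adjusted p = 1.27e-05), with all 3 libraries at 100 µM above all 18 others, and its slope on log10 dose was 0.06 (edgeR adjusted p = 0.00671). TAP1, the other subunit, had a log2 change of 0.14 (SE 0.0826; edgeR adjusted p = 0.223) at 100 µM, and its slope of 0.04 passed (SE 0.0146; edgeR adjusted p = 0.0423). Of 8 peptide-loading partners 2 fell and none rose, beside 12.9% lower and 14.4% higher over all genes, TAPBP, the bridging chaperone, by 0.19 (edgeR adjusted p = 0.00285) and PDIA3, a disulphide isomerase, by 0.12 (0.0353). The PDIA3 call ended without control replicate 1, 100 µM replicate 1 or 100 µM replicate 3 (adjusted p of 0.239, 0.0694 and 0.114). CFTR, the chloride channel of the family, had 2 to 15 counts per library and was not called at 100 µM (edgeR adjusted p = 0.33).

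The pseudogene ABCA11P had 0.767, 0.408 and 0.731 CPM at 100 µM, against 0.334, 0.230 and 0.258 CPM in control, on 2 to 28 counts per library. ABCA11P rose by 1.21 (SE 0.396; edgeR adjusted p = 0.0193), and the call ended without any 1 of 4 libraries and against control replicate 1 alone (adjusted p of up to 0.313). ABCA17P, which overlaps ABCA3 on the opposite strand over 1597 bases, had 6 to 27 counts and a log2 change of 0.03 (edgeR adjusted p = 0.965).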
